A study of Mus musculus with 12 samples.

Results

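Glutathione transferases and genes of the NRF2 pathway were examined in the livers of mice fasted for 24 h. The set was made of protein-coding genes whose symbols name a glutathione transferase of the alpha, mu, pi, theta, kappa or omega class or a microsomal transferase, together with 21 other genes, among them NRF2 itself (Nfe2l2), its inhibitor Keap1 and genes of glutathione, thioredoxin and pentose phosphate metabolism. It held 46 of the 56748 genes counted, 25 of them transferases. RNA of whole liver was sequenced from 4 control mice labelled as CPT1A/1B/2 triple floxed (WT), 4 mice with a liver-specific KO of CPT2 (SKO) and 4 with liver-specific double KO of ATF3 and CPT2 (DKO). Deletion in both KO groups was driven by albumin-Cre, which acts in hepatocytes, while whole-liver RNA also holds that of other cells, and the WT livers had floxed alleles that the labels do not list for the KO mice. Ages were not analysed here. Whether the livers of a group came from separate litters or days is not given in the sources used here, so the p-values measure only the spread between these livers.

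NRF2 is a transcription factor that KEAP1 holds in the cytoplasm and marks for degradation. When oxidants or electrophiles modify KEAP1, NRF2 accumulates, pairs with small MAF proteins and binds antioxidant response elements in genes of glutathione synthesis, NADPH supply and detoxification. Glutathione transferases join glutathione to electrophiles, and the liver is among the tissues richest in them. CPT2 is needed to bring long-chain fatty acids into mitochondrial oxidation, the main hepatic fuel in a fast, and ATF3 is a stress-induced transcription factor of the ATF/CREB family.

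Total counts were 14710304 to 20030055 per liver. Levels are given in CPM, which are counts per 1000000 counts scaled by edgeR's TMM factors over the 12 livers, and a gene with 0 counts could have had up to 3 counts by counting error, or 0.145 to 0.195 CPM. WT livers had 199 to 250 CPM of Cpt2, SKO livers 109 to 158 and DKO livers 99.9 to 125, and for Atf3 these ranges were 1.11 to 2.14, 14.5 to 54.0 and 0.266 to 13.5 CPM. Atf3 was thus above the WT range in DKO livers 1 to 3 and below it in DKO 4. Reads of deleted and remaining exons could not be separated, so these counts do not check the deletion of ATF3. The study describes the sequenced mice as male, but Xist counts were 18063 in the third SKO liver (SKO 3) and 20855 in the fourth DKO liver (DKO 4), with 2 and 0 counts on 4 Y-linked genes. In the other 10 livers Xist had at most 19 counts and the Y-linked genes at least 2741. Because every WT liver had the low Xist and high Y-linked counts, results are given with all livers. Where the call of a member against WT differed, they are also given without SKO 3 or DKO 4. For other genes, and for directions, this was done only in part. Over 8 hepatocyte marker genes, none of them at 0, the summed level reached 78928 to 97553 CPM in WT livers, 41044 to 71360 in SKO livers, 42494 to 51986 in DKO livers 1 to 3 and 98815 in DKO 4.

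In SKO livers members of the set were found on both sides of WT. Of the 42 members with enough counts for a test, 11 were higher and 11 lower than in WT, where 16.7% of all 14261 genes tested were higher and 15.4% lower (edgeR's quasi-likelihood test, adjusted p under 0.05 over all genes). Most of the falls were in transferases and most of the rises in other members. Among the 21 transferases tested 3 were higher and 10 lower, with a median log2 fold change of −0.60, and among the 21 other members 8 were higher and 1 lower, with a median of 0.40, while the median of all genes was 0.03. With SKO 3 left out, 13 members were higher and the same 11 lower, against 17.3% and 15.2% of all genes. The SKO and WT livers did not overlap in 8 members that were higher and 11 that were lower in SKO, against 17.2% and 16.1% of all genes tested. Leaving out WT 1 gave 7 members higher and 9 lower. Gsta5, Gstt4, Gsto2 and Mgst2, with at most 9 counts in any liver, were not tested.

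**Figure D1:**
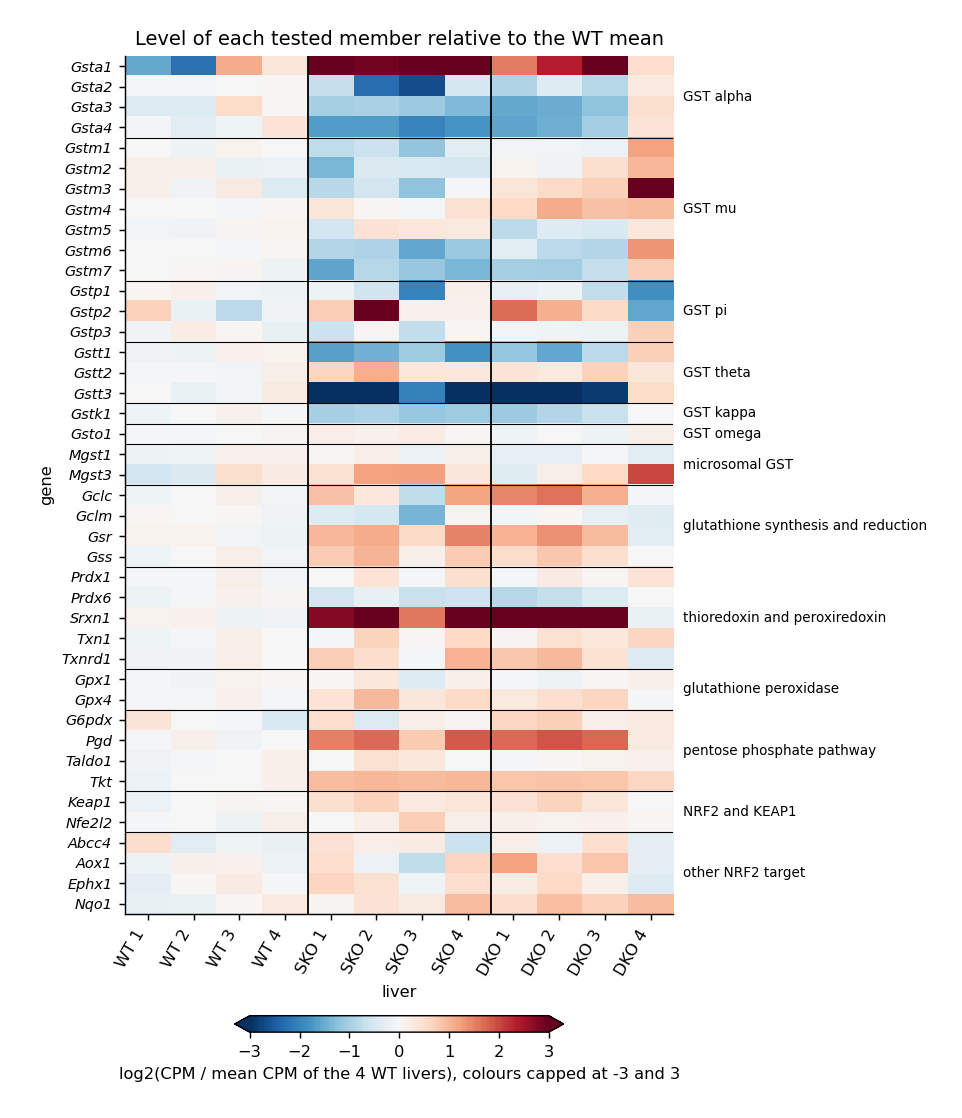
Rows are the 42 members tested, grouped by role, and columns are the 12 livers; colour is the log2 ratio of a liver's CPM to the mean of the 4 WT livers. SKO livers and DKO livers 1 to 3 show high Srxn1 and Pgd and low Gstt3 and Gsta4, whereas DKO 4 was near or above WT in these transferases and near WT in Srxn1.

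Among the members that are not transferases, the largest log2 fold change was that of Srxn1 (ENSMUSG00000032802), which encodes sulfiredoxin, an enzyme that repairs overoxidised peroxiredoxins. Its level was 61.3, 61.6, 50.9 and 52.7 CPM in the WT livers, and 379, 509, 169 and 650 CPM in SKO livers 1 to 4. Every SKO liver was above every WT liver, with SKO 3 the lowest of them. The log2 fold change was 2.91 ± 0.33 (SE, n = 4 and 4; edgeR adjusted p = 6.57e-05), a 7.52-fold rise. Pgd (ENSMUSG00000028961), the NADPH-producing 6-phosphogluconate dehydrogenase, had 23.5, 26.8, 22.6 and 23.9 CPM in WT and 68.7, 78.9, 42.0 and 87.2 CPM in SKO livers. Again SKO 3 was the lowest SKO liver and still above all WT livers. Pgd rose by 1.51 ± 0.20 on the log2 scale (edgeR adjusted p = 1.68e-04). Transketolase (Tkt), in the non-oxidative branch of the same pathway, had 67.6 to 84.4 CPM in WT and 144 to 151 CPM in SKO livers, a log2 fold change of 0.96 ± 0.11 with groups that did not overlap (edgeR adjusted p = 7.04e-05). G6pdx, the entry enzyme of the pathway, had 3.90 to 7.02 CPM in WT and 4.04 to 7.53 in SKO livers, and Taldo1, its most abundant member per length (36.2 CPM per kb in WT), had 72.7, 75.9, 79.2 and 86.9 CPM in WT and 79.6, 108, 98.4 and 78.5 CPM in SKO livers. Neither G6pdx nor Taldo1 passed the test (log2 fold changes of 0.12 ± 0.24 and 0.21 ± 0.13).

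Genes that make and recycle glutathione did not move as a block. Glutathione reductase (Gsr) had 70.3 to 84.6 CPM in WT and 117 to 220 CPM in SKO livers, a rise of 1.08 ± 0.18 on the log2 scale (edgeR adjusted p = 7.58e-04). Glutathione synthetase (Gss) rose by 0.71 ± 0.17 on the log2 scale (edgeR adjusted p = 0.00754). Gclc encodes the catalytic subunit of glutamate-cysteine ligase, the rate-limiting enzyme of glutathione synthesis, and was the most abundant of the 4 per length, with 62.9 CPM per kb in WT. It had 218, 237, 268 and 225 CPM in WT and 437, 297, 140 and 541 CPM in SKO livers. SKO 3 lay below all WT livers and the other SKO livers above them. The log2 fold change was 0.58 ± 0.31 with all livers (edgeR adjusted p = 0.186) and 0.84 ± 0.19 without SKO 3 (edgeR adjusted p = 0.00533). Gclm, the modifier subunit of the same enzyme, had 250, 242, 246 and 224 CPM in WT and 185, 167, 92.2 and 255 CPM in SKO livers. Its log2 fold change was −0.46 ± 0.24, opposite in sign to that of Gclc, and did not pass the test (edgeR adjusted p = 0.164, and 0.0354 without SKO 4).

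Among the thioredoxin genes, Txnrd1 (thioredoxin reductase) rose by 0.61 ± 0.20 on the log2 scale (edgeR adjusted p = 0.0360), and SKO 3, with 186 CPM, lay inside the WT range of 180 to 221 CPM. Its call was lost without WT 1, WT 2, WT 4, SKO 1, SKO 2 or SKO 4 (edgeR adjusted p = 0.0548 to 0.104). Prdx6, a peroxiredoxin that uses glutathione, fell by 0.50 on the log2 scale (SE 0.14, edgeR adjusted p = 0.0173) and was the only member outside the transferases to fall in this comparison, a call lost without WT 4 (edgeR adjusted p = 0.0504). Prdx1, the most abundant gene of this role at 211 CPM per kb in WT, had 619, 617, 728 and 608 CPM in WT and 636, 857, 627 and 897 CPM in SKO livers, and did not pass the test. For the glutathione peroxidases, Gpx4, which reduces lipid hydroperoxides, rose by a log2 fold change of 0.60 ± 0.15 (edgeR adjusted p = 0.0112). The more abundant Gpx1, at 208 CPM per kb in WT, had 286, 279, 323 and 309 CPM in WT and 307, 370, 229 and 331 CPM in SKO livers, a log2 fold change of 0.05 ± 0.15. Of the 100-base stretches of the Gpx4 transcripts, 40.8% also occur in a pseudogene, so the assignment of its reads is less certain.

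The transcript of NRF2 itself did not pass the test, and that of its inhibitor did. Nfe2l2 had 65.2, 66.8, 59.8 and 76.1 CPM in WT and 66.1, 77.2, 111 and 75.2 CPM in SKO livers, with SKO 3 the only SKO liver beyond 77.2 CPM. The log2 fold change was 0.30 ± 0.16 (edgeR adjusted p = 0.189), and 0.12 ± 0.13 without SKO 3. Keap1 rose from 46.3, 52.8, 55.5 and 55.0 CPM in WT to 72.8, 84.5, 63.8 and 67.6 CPM in SKO livers, a log2 fold change of 0.46 ± 0.12 (edgeR adjusted p = 0.0140, and 0.0602 without WT 1). These are transcript levels, and NRF2 is controlled largely through its protein. Nqo1, a quinone reductase and a widely used reporter of NRF2 activity, had 9.20, 9.30, 11.2 and 13.1 CPM in WT and 11.4, 14.4, 12.8 and 20.3 CPM in SKO livers. The groups overlapped, and its log2 fold change of 0.46 ± 0.20 did not pass the test (edgeR adjusted p = 0.105). Ephx1 (microsomal epoxide hydrolase), the most abundant of the other targets at 275 CPM per kb in WT, had 437, 548, 641 and 523 CPM in WT and 843, 733, 494 and 766 CPM in SKO livers. Its log2 fold change was 0.40 ± 0.18 with all livers (edgeR adjusted p = 0.116) and 0.54 ± 0.15 without SKO 3 (edgeR adjusted p = 0.0187).

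**Figure D2:**
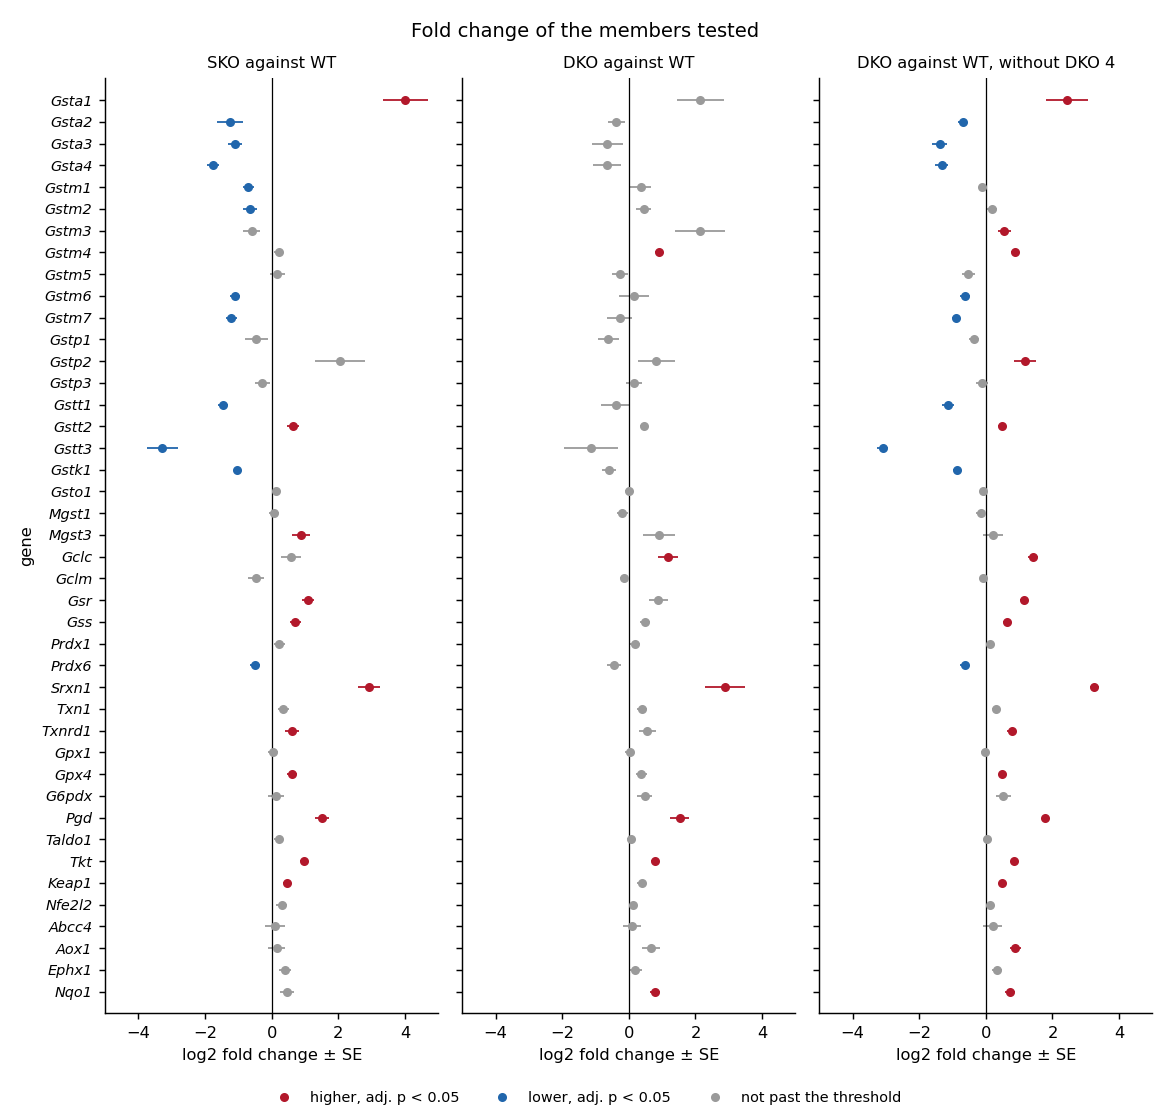
Points are the log2 fold changes of the 42 members in edgeR's fit and bars their SE, for SKO against WT, for DKO against WT and for DKO against WT without DKO 4; colour gives the direction of members with an adjusted p under 0.05. The number of coloured points was 22 in the first panel, 6 in the second and 25 in the third.

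Falls were found in the alpha, mu, theta and kappa transferase classes. Gstt3 (ENSMUSG00000001665), of the theta class, had 59.5, 52.4, 57.2 and 72.2 CPM in WT and 4.09, 2.76, 14.9 and 3.09 CPM in SKO livers. All SKO livers were below all WT livers, and SKO 3 was the highest of them. The log2 fold change of −3.28 ± 0.46 (edgeR adjusted p = 2.70e-04) was the lowest of the members and became −4.19 ± 0.19 without SKO 3. Its neighbour Gstt1 had 134, 129, 157 and 155 CPM in WT and 46.7, 52.9, 68.3 and 41.0 CPM in SKO livers (log2 fold change −1.46 ± 0.16, edgeR adjusted p = 5.58e-05). Gstt2, in the same cluster on chromosome 10, went the other way, from 138 to 165 CPM in WT to 182 to 315 CPM in SKO livers (log2 fold change 0.63 ± 0.18, edgeR adjusted p = 0.0186, and 0.0537 to 0.0554 without WT 1, WT 2 or WT 3). Gstk1, which encodes the mitochondrial and peroxisomal kappa transferase, had 99.0, 110, 120 and 107 CPM in WT and 54.7, 57.8, 49.3 and 52.3 CPM in SKO livers, so its level was 2.04-fold lower (log2 fold change −1.03 ± 0.11, edgeR adjusted p = 4.95e-05).

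Of the transferase classes, alpha had the widest range of log2 fold changes in SKO livers. Gsta4, whose enzyme is known for its activity toward the lipid peroxidation product 4-hydroxynonenal, had 23.3, 19.6, 22.6 and 32.6 CPM in WT and 7.72, 7.73, 6.18 and 7.19 CPM in SKO livers, which did not overlap. On the log2 scale the change was −1.77 ± 0.18 (edgeR adjusted p = 3.14e-05). Gsta3, the most abundant alpha gene per length (215 CPM per kb in WT), had 699, 700, 1357 and 979 CPM in WT and 471, 479, 438 and 373 CPM in SKO livers, a log2 fold change of −1.09 ± 0.21 (edgeR adjusted p = 0.00230, and 0.0592 in a fit over all 12 livers). Gsta2 had 17.6, 17.7, 18.1 and 18.6 CPM in WT and 11.2, 3.68, 2.86 and 12.5 CPM in SKO livers, and fell by 1.26 on the log2 scale (SE 0.39, edgeR adjusted p = 0.0286, and 0.0510 to 0.0722 without WT 1, WT 2, WT 4 or SKO 2). Gsta1 was the exception and stayed scarce in all groups, with 2, 1, 10 and 7 counts in WT and 63, 44, 48 and 190 counts in SKO livers. In CPM these were 0.104, 0.0633, 0.650 and 0.385 in WT and 4.09, 2.25, 2.49 and 10.7 in SKO livers, and the log2 fold change was 4.01 ± 0.68 (edgeR adjusted p = 9.50e-04). Of the 100-base stretches of Gsta1, 81.8% also occur in another gene, as do 24.8% of those of Gsta2, and reads may have been split among these copies.

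Of the 7 mu genes, which lie together on chromosome 3, 4 fell in SKO livers and none rose, where 15.4% of all genes tested were lower and 16.7% higher. Gstm1, the most abundant at 505 CPM per kb in WT, had 753, 669, 800 and 753 CPM in WT and 438, 472, 328 and 596 CPM in SKO livers (log2 fold change −0.70 ± 0.17, edgeR adjusted p = 0.00937). Gstm7 had 30.0, 30.8, 31.9 and 27.0 CPM in WT and 9.93, 16.6, 13.6 and 11.5 CPM in SKO livers (log2 fold change −1.21 ± 0.16, edgeR adjusted p = 2.01e-04). Gstm6 had 32.1, 32.0, 31.7 and 33.5 CPM in WT and 17.6, 16.9, 11.0 and 14.9 CPM in SKO livers (log2 fold change −1.10 ± 0.15, edgeR adjusted p = 2.30e-04). In a fit over all 12 livers the calls of Gstm1 and Gstm6 were lost, with edgeR adjusted p = 0.0846 and 0.0529. For Gstm2 the fall was 0.65 on the log2 scale (SE 0.20, edgeR adjusted p = 0.0277, and 0.0723 or 0.0727 without WT 1 or WT 2). Gstm3, Gstm4 and Gstm5 did not pass the test, with log2 fold changes of −0.60, 0.21 and 0.17. No pi gene passed it with all livers, and without SKO 3 Gstp2 was called higher, with a log2 fold change of 2.37 (edgeR adjusted p = 0.0236). That value rested on SKO 2, with 56.4 CPM, while SKO 1 and SKO 4 had 7.33 and 4.83 CPM and WT livers 2.54 to 7.07 CPM, and over the alternatives it went down to 0.35 (edgeR adjusted p up to 0.497). Gstp1, the most abundant of these at 669 CPM per kb in WT, had 1086, 1146, 974 and 935 CPM in WT and 933, 685, 258 and 1148 CPM in SKO livers. SKO 3 stood far below the rest, and DKO 4, with 289 CPM, was the lowest of its group too. Gstp1 and Gstp2 share 38.4% and 36.3% of their 100-base stretches with each other.

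The most abundant transferase per length, microsomal Mgst1 (1184 CPM per kb in WT), had 2130, 2194, 2615 and 2595 CPM in WT and 2477, 2732, 2102 and 2680 CPM in SKO livers, with a log2 fold change of 0.06 ± 0.15. Its scarce relative Mgst3 rose by 0.88 ± 0.28 on the log2 scale (edgeR adjusted p = 0.0346). Its value was 0.73 ± 0.30 without SKO 3, where it no longer passed (edgeR adjusted p = 0.0797), and it did not pass without WT 1, WT 2, WT 4 or SKO 2 (edgeR adjusted p = 0.0514 to 0.107). Gsto1, the omega gene tested, had 112, 112, 114 and 122 CPM in WT, 131, 125, 134 and 117 CPM in SKO and 105, 116, 103 and 130 CPM in DKO livers. Summed over the 22 soluble transferases, the level was 1747 to 1901 CPM per kb in WT, 757 to 1505 in SKO, 1278 to 1456 in DKO livers 1 to 3 and 2294 in DKO 4. In bulk RNA, fewer cells of a type and less RNA per cell cannot be told apart. The hepatocyte markers were lower in SKO than in WT livers as well, 5 of the 8 past the test, and their part in these falls was not tested.

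**Figure D3:**
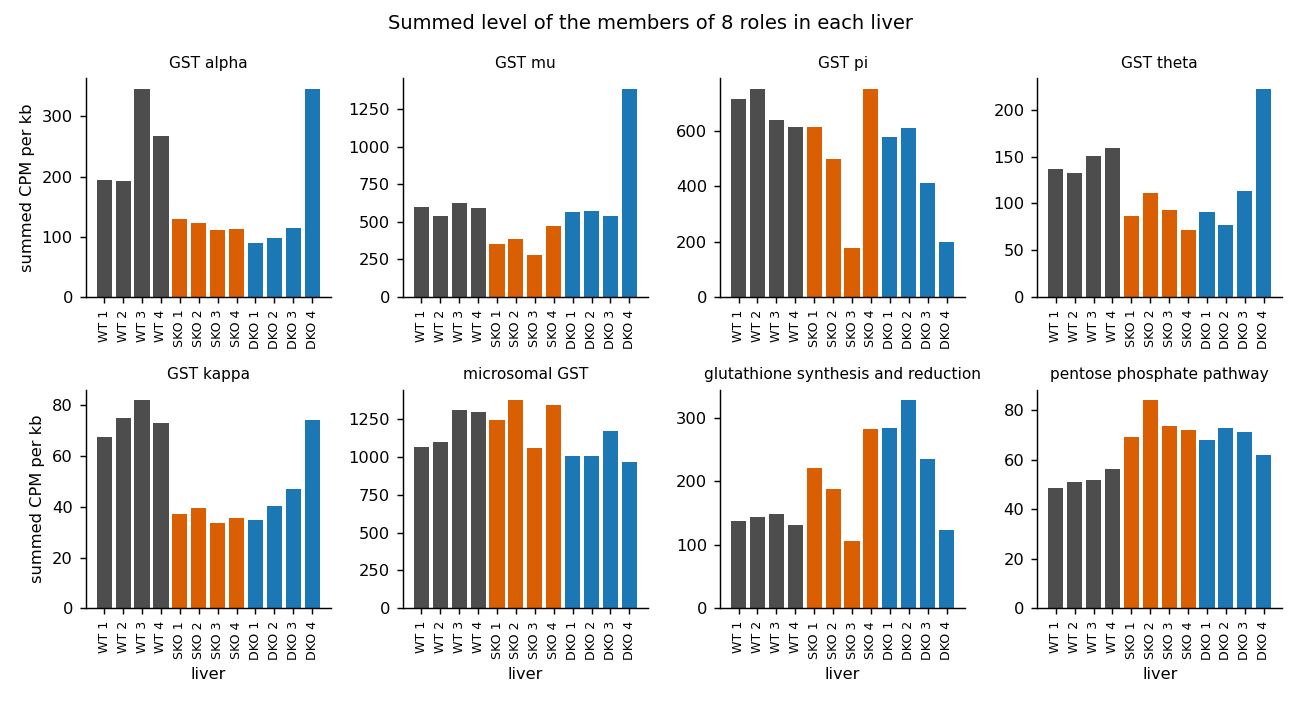
Bars are the summed CPM per kb of the members of 8 roles in each liver, with an axis from 0 in every panel. In DKO 4 the mu class reached 1388 CPM per kb against 540 to 627 in WT livers, whereas the pi class was low in SKO 3 (175) and DKO 4 (200).

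Promoter windows of RefSeq (GRCm38.p6, 250 bases before to 50 after a start) were available for 40 members. They were searched on both strands for the core of the antioxidant response element, TGACNNNGC, for the AP-1 site TGANTCA and for the full cyclic AMP response element TGACGTCA. The first 2 can overlap, and ATF3 is known to bind sites of the latter 2 kinds. The response element core was found in 12 of the 40 members (30%), against 14% of all genes with a window, the AP-1 site in 7 of 40 (17.5% against 8.97%) and the full element in none (2.03% of all genes). The set was chosen to hold NRF2 target genes, so its share of the core is no independent evidence. A gene counted if any of its windows matched, and there were 55 windows for the 40 members and 32851 for 27025 genes. Of the 9 members with a window that were higher in SKO livers, 3 had the core, and of the 9 that were lower, 2 did. Of these 5 windows 4 are shown, from genes on either side of WT, with matches in capitals. The window of Pgd is not shown, since its match lies in coding sequence after the more downstream of its RefSeq starts. For Srxn1 the window is chr2:152105274-152105573 on the plus strand, and holds a pair of AP-1 matches, which begin 102 and 45 bases before the start, and a core match on the other strand from base 29, counted from the start. The window of Txnrd1 (chr10:82858956-82859255, plus strand, core on the other strand 92 bases before the start) is from a gene that rose as well. Those of Gsta3 (chr1:21240335-21240634, plus strand, core 121 bases before the start) and Gstm7 (chr3:107931565-107931864, minus strand, core 129 bases before the start) are from genes that fell. Txnrd1, Pgd and Gstm7 have other RefSeq starts whose windows did not hold the core. A match is a description of these letters and not of binding.
Srxn1: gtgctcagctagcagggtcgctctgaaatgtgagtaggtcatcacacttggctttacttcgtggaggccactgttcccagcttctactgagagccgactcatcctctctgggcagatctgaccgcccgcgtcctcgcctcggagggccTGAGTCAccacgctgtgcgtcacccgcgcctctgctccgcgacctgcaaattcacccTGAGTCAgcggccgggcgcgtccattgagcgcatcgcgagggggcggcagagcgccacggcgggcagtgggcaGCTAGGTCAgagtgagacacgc
Txnrd1: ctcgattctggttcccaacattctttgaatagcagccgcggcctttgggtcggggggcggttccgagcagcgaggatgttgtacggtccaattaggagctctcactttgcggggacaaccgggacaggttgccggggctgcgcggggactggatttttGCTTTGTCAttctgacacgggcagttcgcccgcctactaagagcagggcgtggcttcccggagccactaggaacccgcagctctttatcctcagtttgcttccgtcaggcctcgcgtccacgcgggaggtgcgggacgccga
Gsta3: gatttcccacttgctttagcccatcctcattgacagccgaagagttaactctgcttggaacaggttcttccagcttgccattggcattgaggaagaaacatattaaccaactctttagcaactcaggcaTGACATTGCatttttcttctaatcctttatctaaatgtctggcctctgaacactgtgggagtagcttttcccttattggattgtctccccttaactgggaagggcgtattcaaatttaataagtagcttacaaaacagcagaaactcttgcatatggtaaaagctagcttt
Gstm7: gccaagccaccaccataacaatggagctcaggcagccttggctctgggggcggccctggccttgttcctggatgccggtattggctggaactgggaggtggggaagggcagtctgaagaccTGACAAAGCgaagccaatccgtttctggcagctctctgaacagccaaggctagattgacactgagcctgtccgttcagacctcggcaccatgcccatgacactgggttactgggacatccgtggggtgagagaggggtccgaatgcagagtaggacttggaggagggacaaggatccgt

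The result in DKO livers depended on which livers were kept, and DKO 4 stood apart from the other 3. Over all genes, 1510 were called against WT with all livers, 5253 without DKO 4 and 244 to 719 without another single liver. Fewer members were higher without WT 1, WT 2, WT 4, DKO 2 or DKO 3. Compared with WT, 6 members were higher and none lower over all 4 DKO livers, where 6.06% of 14448 genes tested were higher and 4.39% lower. DESeq2's Wald test also called no member lower, and at an unadjusted p under 0.05 in edgeR 15 members were higher and 2 lower, against 16.6% and 12.8% of all genes. Without DKO 4, 16 members were higher and 9 lower, against 18.4% and 17.5% of all genes. The 6 members higher over all livers were Srxn1, Pgd, Tkt, Gclc, Nqo1 and Gstm4, and Pgd, Srxn1 and Tkt were also among the 11 higher in SKO livers. Both comparisons used the same 4 WT livers, so the members they share are no independent evidence of each other. Members that did not overlap with WT were 6 higher, against 7.72% of all genes, and 1 lower (Gstp1), against 9.05%.

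Srxn1 had 540, 618, 463 and 49.5 CPM in DKO livers 1 to 4, so that DKO 4 was below all WT livers and the rest far above them. The log2 fold change from WT was 2.89 ± 0.60 (edgeR adjusted p = 0.0209), and 3.26 ± 0.13 without DKO 4 (edgeR adjusted p = 1.07e-07). Pgd had 79.0, 90.2, 79.7 and 29.7 CPM, with DKO 4 just above the highest WT liver (log2 fold change 1.53 ± 0.29, edgeR adjusted p = 0.0171). Tkt, at 136, 138, 135 and 116 CPM, was above WT in all 4 livers (log2 fold change 0.80 ± 0.12, edgeR adjusted p = 0.00883). Gclc had 651, 735, 503 and 228 CPM, where DKO 4 lay inside the WT range and the other livers far above it. Its log2 fold change was 1.17 ± 0.30 (edgeR adjusted p = 0.0399), and 1.41 ± 0.14 without DKO 4 (edgeR adjusted p = 2.32e-05). Gclm had 228, 252, 202 and 186 CPM, a log2 fold change of −0.14 ± 0.13. Of these calls only that of Tkt held whichever liver was left out. Without a liver other than DKO 4, the edgeR adjusted p was 0.0557 to 0.0689 for Srxn1 and 0.0763 to 0.112 for Gclc, and Pgd passed only without WT 3, DKO 1 or DKO 4.

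Nqo1 and Gstm4 were high in DKO 4 as well. Nqo1 had 15.4, 20.1, 17.3 and 20.4 CPM in DKO livers, all above the WT maximum of 13.1 CPM, with a log2 fold change of 0.79 ± 0.16 (edgeR adjusted p = 0.0198, and 0.0564 to 0.0664 without WT 1, WT 2, DKO 2 or DKO 3). Gstm4 (ENSMUSG00000027890) had 41.2, 40.0, 38.7 and 42.3 CPM in WT, 52.2, 42.1, 38.7 and 55.4 CPM in SKO and 61.3, 87.4, 74.0 and 78.2 CPM in DKO livers. Every DKO liver was above every other liver for this gene, and its log2 fold change from WT was 0.90 ± 0.12 (edgeR adjusted p = 0.00717), a call that held whichever liver was left out. It was the only transferase called in this comparison with all livers, where the 21 transferases had a median log2 fold change of −0.00 and the other members one of 0.41.

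**Figure D4:**
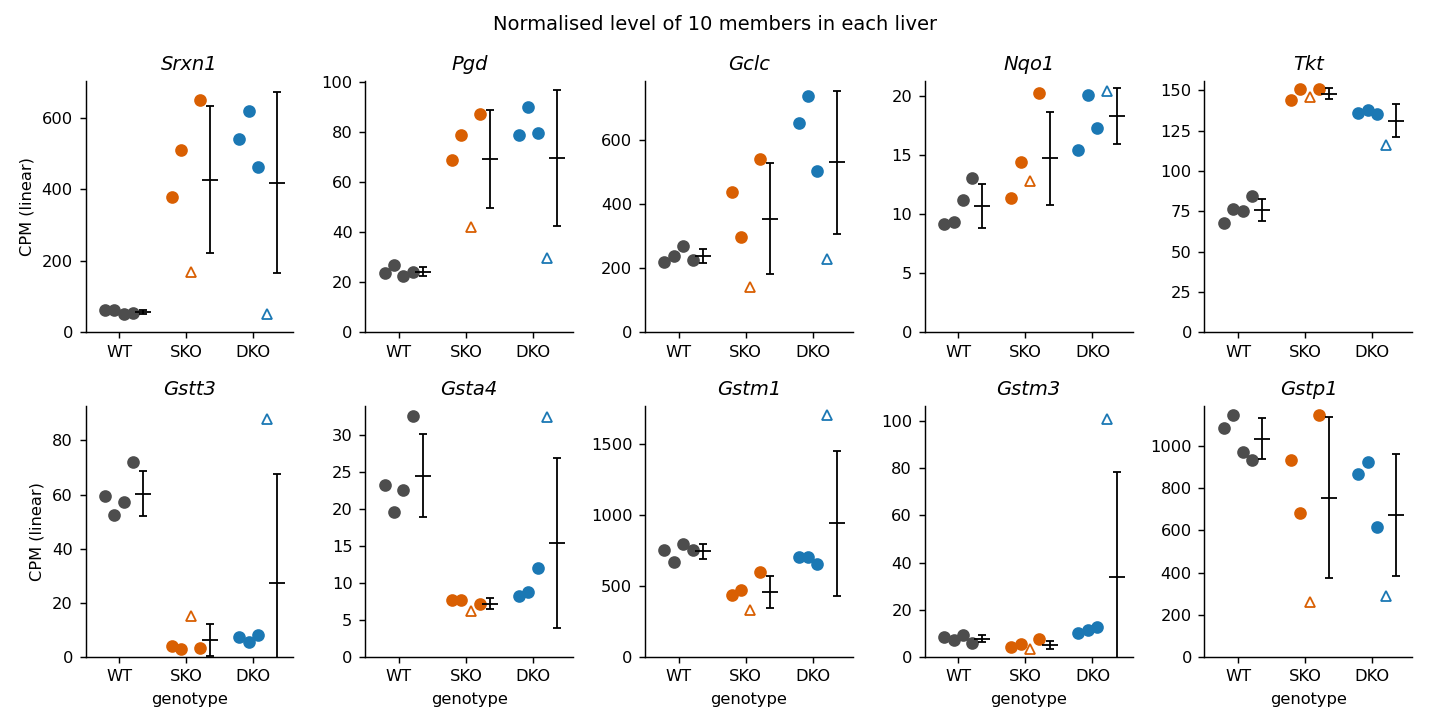
Symbols are the CPM of single livers on a linear axis from 0, open triangles are the livers with high Xist counts (SKO 3 and DKO 4), and bars at the side are the mean ± SD of 4 livers, ending at 0 where they would run below it. DKO 4 lies with or below the WT livers for Srxn1 and Gclc and far above the other DKO livers for Gstt3, Gsta4, Gstm1 and Gstm3.

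Calls in DKO livers depended on DKO 4 across the genome and in both kinds of member. Of the 21 transferases tested, 1 was higher and none lower with all livers, against 6.06% and 4.39% of all genes, and 5 were higher and 8 lower without DKO 4, against 18.4% and 17.5%. Of the 21 other members, 5 were higher and none lower with all livers and 11 higher and 1 lower without DKO 4. Those gained were Gsr, Aox1 (an aldehyde oxidase), Txnrd1, Gss, Gpx4 and Keap1, with log2 fold changes from WT of 1.14, 0.88, 0.77, 0.62, 0.49 and 0.49 without DKO 4, and Prdx6, which fell by 0.64 (edgeR adjusted p from 4.67e-05 to 0.00684). With all livers these 7 values were 0.89, 0.67, 0.56, 0.49, 0.38, 0.39 and −0.44, in the same order. The 4 rises gained among transferases were Gsta1, Gstm3, Gstp2 and Gstt2, with log2 fold changes from WT of 2.44, 0.55, 1.17 and 0.48 without DKO 4 (edgeR adjusted p = 0.0105, 0.0391, 0.0200 and 0.0113). With all livers these were 2.15, 2.15, 0.83 and 0.46, so that for Gstm3 the call was gained while the value became smaller. Gstt3 had 7.23, 5.51, 8.18 and 87.8 CPM in DKO livers, where DKO 4 exceeded all WT livers and the others lay below the lowest WT liver. Its log2 fold change from WT was −1.13 ± 0.81 with all livers (edgeR adjusted p = 0.384) and −3.10 ± 0.17 without DKO 4 (edgeR adjusted p = 5.87e-07). Gsta4 had 8.25, 8.82, 12.1 and 32.5 CPM, and its log2 fold change moved from −0.65 ± 0.42 to −1.33 ± 0.20 in the same way (edgeR adjusted p = 0.332 and 4.81e-04). DKO livers 1 to 4 had 321, 334, 407 and 1302 CPM of Gsta3. They had 50.8, 58.9, 68.9 and 109 CPM of Gstk1, and 64.0, 48.6, 82.0 and 236 CPM of Gstt1. In all 3 genes DKO 4 stood above the other DKO livers. With all livers the log2 fold changes of Gsta3, Gstk1 and Gstt1 from WT were −0.64, −0.59 and −0.39, and none passed the test. Without DKO 4 they were −1.39 ± 0.23, −0.87 ± 0.12 and −1.14 ± 0.17 (edgeR adjusted p = 7.82e-04, 3.14e-04 and 4.64e-04). Gsta2 had 9.60, 13.7, 10.0 and 22.0 CPM, a log2 fold change of −0.37 with all livers (edgeR adjusted p = 0.351), and fell by 0.70 on the log2 scale without DKO 4 (SE 0.14, edgeR adjusted p = 0.00298). Gstm6 had 26.0, 18.6, 17.7 and 80.4 CPM, and Gstm7 had 15.1, 14.6, 18.2 and 50.2 CPM. Again DKO 4 alone was above WT. Gstm6 was 0.16 ± 0.44 on the log2 scale above WT with all livers and fell by 0.63 without DKO 4 (SE 0.14, edgeR adjusted p = 0.00508). Gstm7 had a log2 fold change of −0.27 with all livers (edgeR adjusted p = 0.674), and fell by 0.90 without DKO 4 (SE 0.12, edgeR adjusted p = 2.29e-04). The hepatocyte marker sum of DKO 4 was just above the WT range, against lower sums in the other DKO livers. What part this or the sex of the mouse had in these values was not tested.

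The comparison of DKO with SKO asks what the loss of ATF3 adds to the loss of CPT2. No member passed the test in either direction, where 3 of 14363 genes did (0.0209%), 1 of them higher (0.00696%) and 2 lower (0.0139%), and DESeq2's Wald test called no member either. At an unadjusted p under 0.05 in edgeR, 9 members had higher and 1 had lower values in DKO livers, against 4.11% and 2.38% of all genes, and all 10 were transferases. Without SKO 3 and DKO 4, 7 members had higher and 1 had lower values at the unadjusted p, and 1 of the higher ones was not a transferase. The share of all genes at that p was not counted for these livers. Again no member passed the adjusted threshold without them, against 0.0905% of all genes higher and 0.0557% lower. The other 21 members had log2 fold changes between −0.22 and 0.60 with a median of −0.02. For Srxn1 the value was −0.02 ± 0.61, and 0.08 ± 0.22 without the livers with high Xist counts, and for Nqo1 it was 0.34 ± 0.20. These errors leave room for differences that 4 livers a group could not show.

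Members in which DKO and SKO livers did not overlap were mostly of the mu class. In 6 members every DKO liver was above every SKO liver, against 2.08% of all genes tested, and 5 of these 6 were mu genes, namely Gstm1, Gstm2, Gstm3, Gstm4 and Gstm6, with Gsta4 as the sixth. For Gstm6 the groups barely separated, with 17.7 CPM in the lowest DKO liver and 17.6 CPM in the highest SKO liver. Without the livers with high Xist counts, its log2 fold change from SKO went from 1.28 to 0.35. That of Gsta4 went from 1.14 to 0.38 in the same way. Only Tkt, 1 of the 42 members, was lower in every DKO than in every SKO liver, which is near the 1.86% of all genes. It had at most 138 CPM in DKO and at least 144 CPM in SKO livers (log2 fold change −0.15 ± 0.13, edgeR adjusted p = 0.911). Gstm4 had a value of 0.70 ± 0.17 on the log2 scale relative to SKO (edgeR adjusted p = 0.396). Gstm2 had 30.0, 29.4, 23.0 and 23.4 CPM in WT, 10.2, 19.5, 19.1 and 18.6 CPM in SKO and 28.3, 24.6, 36.8 and 52.8 CPM in DKO livers. DKO livers thus lay within or above the WT range, and the log2 fold change from SKO was 1.11 ± 0.29 (edgeR adjusted p = 0.432), or 0.91 ± 0.25 without the livers with high Xist counts. Gstm1 had 707, 702, 654 and 1705 CPM in DKO livers, of which livers 1 and 2 lay within the WT range and liver 3 just below it. Its log2 fold change from SKO was 1.08 ± 0.34 (edgeR adjusted p = 0.589), or 0.46 ± 0.18 without the livers with high Xist counts.

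Gstm3 had 8.58, 7.21, 9.30 and 5.83 CPM in WT, 4.35, 5.27, 3.33 and 7.52 CPM in SKO and 9.89, 11.5, 12.6 and 101 CPM in DKO livers. The last value is that of DKO 4, with 1900 counts where no other liver had over 247. Its log2 fold change from SKO was 2.78 ± 0.77 with all livers (edgeR adjusted p = 0.469) and 0.99 ± 0.24 without the livers with high Xist counts. Gsta1 was the member with lower values, at 0.868, 1.53, 2.49 and 0.426 CPM in DKO livers, and had a log2 fold change from SKO of −1.85 ± 0.61 (edgeR adjusted p = 0.609). Mgst1 had 2017, 2009, 2332 and 1897 CPM and Gstp1 868, 924, 616 and 289 CPM in DKO livers. Keap1 had 70.4, 83.4, 67.0 and 52.5 CPM and Nfe2l2 74.9, 71.6, 73.1 and 70.1 CPM in DKO livers. The log2 fold changes of Keap1 and Nfe2l2 from SKO were −0.06 ± 0.16 and −0.17 ± 0.18. Of the abundant members of the other roles, Prdx1 had 631, 768, 674 and 850 CPM and Gpx1 294, 268, 311 and 335 CPM in DKO livers. Ephx1 had 632, 808, 594 and 413 CPM and Taldo1 75.5, 80.7, 84.1 and 86.2 CPM. All 4 overlapped with SKO livers.

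Other genes linked to NRF2 were counted beside the members. Of 25 such genes, 23 were tested against WT, and 14 were higher and 2 lower in SKO livers and 7 higher and none lower in DKO livers, with median log2 fold changes of 0.60 and 0.46. Each of the 7 calls in DKO livers was lost in at least 1 of the alternative fits. Without SKO 3, 16 of 24 tested were higher and 1 lower in SKO livers, against 17.3% and 15.2% of all genes. Of all genes tested with all livers, 16.7% were higher and 15.4% lower in SKO livers and 6.06% and 4.39% in DKO livers. Without DKO 4, 14 of 24 tested were higher and 2 lower in DKO livers, against 18.4% and 17.5% of all genes. The 4 with the smallest p-values were Mafk, Entpd5, Me1 and Cbr3. Mafk, a small MAF partner of NRF2, had 21.7 to 28.0 CPM in WT livers, 47.3 to 53.8 in SKO livers, 51.3 to 54.4 in DKO livers 1 to 3 and 25.4 in DKO 4 (log2 fold change in SKO 0.97 ± 0.12, edgeR adjusted p = 9.70e-05). Me1, the cytosolic malic enzyme that supplies NADPH, had 111 to 138 CPM in WT and 198 to 336 CPM in SKO livers, with a log2 fold change of 1.08 ± 0.16 (edgeR adjusted p = 4.21e-04). Entpd5, a nucleotide-hydrolysing enzyme of the endoplasmic reticulum, had a log2 fold change of 1.07 ± 0.13 (edgeR adjusted p = 1.02e-04). Cbr3, a carbonyl reductase, had 0.364, 0.443, 0.910 and 1.15 CPM in WT and 20.2, 15.5, 1.92 and 13.1 CPM in SKO livers, and SKO 3 was again the lowest of these (log2 fold change 4.13 ± 0.64, edgeR adjusted p = 5.23e-04).

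Of 33 further enzymes of glutathione and peroxide metabolism, 30 were tested, and 7 were higher and 7 lower in SKO livers and 2 higher and 2 lower in DKO livers, against 16.7% and 15.4% of all genes in SKO livers and 6.06% and 4.39% in DKO livers. Without DKO 4, 6 were higher and 10 lower, against 18.4% and 17.5%. Glo1, which joins with glutathione to clear methylglyoxal, had 248 to 275 CPM in WT, 109 to 116 in SKO, 111 to 123 in DKO livers 1 to 3 and 257 in DKO 4 (log2 fold change in SKO −1.19 ± 0.11, edgeR adjusted p = 1.58e-05). Chac2, which degrades glutathione, Ggt6, of the gamma-glutamyltransferase family, and Gstz1, the zeta transferase of tyrosine breakdown, also fell in SKO livers, with log2 fold changes of −1.60 ± 0.17, −1.30 ± 0.16 and −0.84 ± 0.12 (edgeR adjusted p = 4.50e-05, 1.12e-04 and 3.60e-04).

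Genes of methionine and cysteine metabolism, the latter amino acid a building block of glutathione, were mostly lower in SKO livers. The list held genes that use these amino acids or their products as well as genes that supply them. Of 16 genes tested out of 17, 10 fell and 2 rose, with a median log2 fold change of −0.55, where 15.4% of all genes were lower and 16.7% higher. In DKO livers 1 fell and 1 rose with all livers, against 4.39% and 6.06% of all genes, and 9 fell and 2 rose without DKO 4, against 17.5% and 18.4%. Cth and Cbs, the enzymes of transsulfuration, fell by 3.40 and 1.67 on the log2 scale (SE 0.23 and 0.17, edgeR adjusted p = 2.58e-06 and 3.88e-05). Cth had 855, 1015, 830 and 782 CPM in WT, 113, 72.4, 93.9 and 51.6 CPM in SKO and 89.4, 127, 73.3 and 686 CPM in DKO livers. DKO 4 was thus the only KO liver near the WT range. Gnmt, which uses up S-adenosylmethionine, fell by 2.09 on the log2 scale (SE 0.13, edgeR adjusted p = 1.24e-06). Slc3a2, the heavy chain of the cystine and large neutral amino acid transporters, rose in both KO groups, by 1.94 ± 0.12 in SKO and 1.42 ± 0.26 in DKO livers (edgeR adjusted p = 1.73e-06 and 0.0163). Among 9 xenobiotic and related receptors, Rxra and Ahr fell in SKO livers, by 0.62 and 1.13 on the log2 scale (SE 0.15 and 0.29, edgeR adjusted p = 0.00677 and 0.0105), and Rxra fell in DKO livers by 0.67 (SE 0.18, edgeR adjusted p = 0.0467). Over the alternatives, the adjusted p of Slc3a2 and Rxra in DKO livers reached 0.0593 and 0.125. Without DKO 4, Ahr was lower in DKO livers too, with a log2 fold change of −1.16 (edgeR adjusted p = 5.81e-04), against −0.83 with all livers (edgeR adjusted p = 0.0840). Arnt did not pass the test.

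Between DKO and SKO livers no gene of these 4 lists passed the test with all livers in edgeR, and 6 of 79 tested had higher values and none lower ones at an unadjusted p under 0.05, against 4.11% and 2.38% of all genes. DESeq2 called 1 of the listed genes. Without the livers with high Xist counts the methionine cycle gene Bhmt, named after its values were seen, was higher in DKO livers, with a log2 fold change of 2.11 ± 0.34 (edgeR adjusted p = 0.0448), or 1.78 ± 0.37 with all livers (edgeR adjusted p = 0.314).

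Markers of other cells were checked in the same fits. In SKO against WT livers, 1 of 9 macrophage, 1 of 8 stellate cell, 2 of 5 erythroid and 2 of 2 intestinal epithelium markers tested were higher, 2 of 4 cholangiocyte and 1 of 5 erythroid markers were lower, and none of 7 endothelial, 1 lymphocyte and 1 exocrine pancreas markers passed the test. The summed cholangiocyte markers had 29.3 to 37.2 CPM in WT, 7.86 to 14.9 in SKO, 10.0 to 19.5 in DKO livers 1 to 3 and 32.0 in DKO 4. Macrophage markers summed to 222 to 440 CPM in WT livers, 216 to 517 in SKO livers, 133 to 205 in DKO livers 1 to 3 and 453 in DKO 4. In DKO against WT livers, 1 of 8 hepatocyte, 1 of 9 macrophage, 1 of 5 cholangiocyte and 1 of 5 erythroid markers were lower and 2 of 2 intestinal epithelium markers higher. Intestinal epithelium markers summed to 108 to 152 CPM in WT livers, and to 266 to 622 and 179 to 343 CPM in SKO and DKO livers. Stellate cell markers summed to 179 to 207 CPM in WT livers, and to 244 to 335 and 221 to 288 CPM in SKO and DKO livers. The part of these markers in the results on the transferases was not tested.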

How the data were processed

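Raw counts of reads per Ensembl gene were deposited by the authors without normalization. Libraries were made by Novogene, and the submitters' processing notes name HISAT2 and the builds GRCm38 and mm10; the counting program is not given in the sources used here. Only 1485 of 52073 gene starts in the table equal those of a GRCm38 annotation, so no gene coordinates were taken from it. The deposited gene length was used for CPM per kb. Deposited FPKM and the authors' tables of fold changes and p-values were not used.

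Total counts were 14710304 to 20030055 per liver (median 17908507), and floors of 3 counts cover counting error only. Livers were grouped by the genotype in the labels, and edgeR 4.0.16 (R 4.3.3) was run on each pair of genotypes (filterByExpr, TMM within the 8 livers, quasi-likelihood test, two-sided, Benjamini-Hochberg adjustment over all genes tested, threshold 0.05). CPM of single genes were scaled by TMM over the 12 livers. SE is the log2 fold change divided by the root of F. The test was checked on simulated counts. DESeq2 1.42.0, RLE normalization, no low-count filter, a fit over 12 livers, a replicate block, only livers with Y-linked counts and leaving out each liver were alternatives. Shared sequence was counted as 100-base stretches of GENCODE M21 transcripts.

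The members and lists were chosen with earlier results of these data known. Values in every liver were given for the 10 members with the largest fold change among those called against WT, the 5 with the smallest p between DKO and SKO, the most abundant member per length of each role, and Nfe2l2, Keap1, Nqo1, Gclc and Gclm. Beside the members, 84 other genes of 4 pathway lists and marker genes of 9 cell types were counted, and of each pathway list up to 4 genes with the smallest p were named; 1 gene that met this rule is not reported here.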

Additional observations from a re-analysis of the deposited data

Results flagged for a closer look

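A level was singled out where 1 of the 4 livers of a genotype lay far from the other 3 relative to the range of the group (Dixon's criterion at 95%). This held in 14 of 126 groups of livers, where chance gives about 1 in 20, or 6.30, and the groups are not independent because each liver enters all genes. Of these, 9 were in DKO 4.

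By this criterion DKO 4 stood above the other DKO livers in 8 transferases. Gsta3 had 1302 CPM there against 321 to 407 in the other DKO livers, and Gsta4 had 32.5 against 8.25 to 12.1 CPM. In the mu class, Gstm1 had 1705 against 654 to 707 CPM, Gstm3 101 against 9.89 to 12.6 CPM, Gstm6 80.4 against 17.7 to 26.0 CPM and Gstm7 50.2 against 14.6 to 18.2 CPM. Gstt3 had 87.8 against 5.51 to 8.18 CPM, and Gstp3 10.7 against 5.90 to 6.17 CPM. Tkt was lowest in DKO 4, at 116 against 135 to 138 CPM.

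The other 5 were spread over 4 livers. Gstm2 was low in SKO 1, at 10.2 against 18.6 to 19.5 CPM. In SKO 2, Gstp2 was high, at 56.4 against 4.78 to 7.33 CPM. Gstt3 was high in SKO 3, at 14.9 against 2.76 to 4.09 CPM. WT 3 was the highest WT liver for Prdx1, at 728 against 608 to 619 CPM, and for Gpx4, at 256 against 227 to 231 CPM.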

How the results depend on the processing

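With DESeq2, RLE normalization, no low-count filter or the replicate block, 10 to 12 members were higher and 11 lower in SKO than in WT livers. A fit over 12 livers gave 9 higher and 6 lower, with the calls of Gsta3, Gstm1, Gstm2, Gstm6, Prdx6, Mgst3 and Txnrd1 lost; the cause was not tested. Leaving out each liver gave 7 to 13 higher, lowest without WT 1, and 9 to 13 lower, and 36 to 45 other pathway genes. For DKO against WT, only livers with Y-linked counts, which leaves out DKO 4, gave 16 members higher, 9 lower and 45 other pathway genes. Leaving out each liver gave 2 to 16 members higher, 0 to 9 lower and 0 to 45 other pathway genes. Over all genes, 5253 were called without DKO 4 and 244 to 719 without another liver, against 1510 with all livers. Members higher were 2 without WT 1, WT 2, DKO 2 or DKO 3, and 3 without WT 4. DESeq2 called 27 other pathway genes and 9 members higher. Gstm1 and Gstm6 reversed from 0.36 and 0.16 to −0.11 and −0.63 on the log2 scale without DKO 4, as with only livers with Y-linked counts, and leaving out other livers gave at most 0.50 and 0.39. For DKO against SKO no setting called a member, and 1 other pathway gene was called with DESeq2, without the low-count filter and with only livers with Y-linked counts.

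Livers with the same replicate number did not deviate together (r = −0.419 to 0.15 over 12 pairs, 2 of them over 0.1), so no pairing by number was seen. With 4 livers a group this cannot decide whether livers shared a litter, day or batch. With the replicate block, 10 members were higher and 11 lower in SKO, 4 higher and 0 lower in DKO against WT, 4 other pathway genes were called in DKO against WT, and Gstm6 reversed to −0.16. Depth limits Gsta1, with 1 to 10 counts in WT livers, and the 4 untested members, which had at most 9 counts in a liver.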
